A study of Mus musculus with 91 samples.

Results

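The 6 liver arrays taken after 24 weeks of feeding were examined: 3 from mice on the high-fat diet (HFD) and 3 from mice on the normal diet (ND), of 51 liver arrays and 91 samples in the series. They were chosen by the tissue, diet and week in their labels, and no measured value entered the choice. All were C57BL/6J mice, male by the study's methods, aged 29 weeks at this time point. The ND was the semi-purified AIN-76 diet, and the HFD was AIN-76 raised in fat with added cholesterol, so that both groups differed in dietary cholesterol as well as in fat. By the study's diet composition the HFD also held less sucrose and corn starch. Its fat was mostly lard, and that of the ND was corn oil. The series followed mice from a baseline through 8 times of sampling, the first at 2 weeks and the last at 24 weeks of either diet. The labels number the arrays replicates 4, 5 and 6 for HFD and replicates 1, 2 and 3 for ND, and the values below follow that order. Whether 1 liver array holds the RNA of 1 mouse or of a pool was not given in the sources used here. The p-values thus measure only a spread between arrays, which may be technical. That spread was pooled within the 17 groups of the 51 liver arrays and not taken from these 6 alone. Levels are log2 signals of an Illumina whole-genome mouse array, quantile normalized over the 51 liver arrays.

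Liver is built mostly of hepatocytes, which make sterols, bile acids, lipoproteins and plasma proteins, among resident macrophages (Kupffer cells), endothelial cells and stellate cells. Hepatocytes adjust sterol synthesis through the transcription factor SREBP-2, which stays inactive in the endoplasmic reticulum while sterol is plentiful. Excess fat is stored in droplets coated by perilipin and CIDE proteins. Lipid-laden tissue attracts monocytes that become macrophages expressing Trem2, Gpnmb and Cd9, and activated stellate cells lay down collagen. In male mice a further set of hepatic genes depends on the pulsed secretion of growth hormone.

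Hepatocyte identity was plain in the arrays. Of 12 hepatocyte markers, none rose and 1 fell (Serpina1a, a call lost in 3 of the 6 fits that left out 1 array), and the median level over the 12 was between 13.35 and 13.55 in the HFD arrays, and between 13.62 and 13.94 in the ND arrays. Some abundant hepatocyte transcripts were read by probes close to the median of all probes, 7.04, and a lack of difference at such a probe says little: the Alb probe averaged 7.59 in HFD and 7.91 in ND, and that of Tat was dimmer still. Markers of skeletal muscle, of exocrine pancreas and of B cells gave 0 of 7, 0 of 8 and 0 of 3 genes past the test. The fat cell marker Adipoq read 7.01, 6.97 and 7.04 in HFD and 6.97, 7.02 and 7.04 in ND, and over the 7 fat cell markers the median level by array was between 6.97 and 7.04 in HFD and between 7.00 and 7.04 in ND. Of those 7, Cidec alone rose, a gene that hepatocytes also express. Arrays of one diet correlated with each other at between 0.989 and 0.996 in HFD and between 0.995 and 0.996 in ND, over probes with a mean level above 8.

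The 24-week arrays of both diets stood apart from the other weeks. On the first principal component of the 51 liver arrays (29.7% of the variance) they lay between 32.1 and 36.4 for HFD and between 29.1 and 30.5 for ND, and the other 45 arrays lay between -30.5 and 22.4. ND at 24 weeks against ND at 20 weeks gave 70 probes higher (0.155%) and 299 lower (0.66%). Week and array processing cannot be told apart here. The comparison of HFD with ND at 24 weeks lies within these 6 arrays, whereas the comparison with other weeks crosses that gap.

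Read against ND, HFD changed 197 of 45281 probes (0.435%) by more than 2-fold with an adjusted p under 0.05 (limma, Benjamini-Hochberg over all probes). Of these, 154 rose (0.34% of all probes tested) and 43 fell (0.095%). They carried 121 gene symbols that rose and 33 that fell, and 15 of the probes had no single symbol. In 195 of the 197 the 3 HFD values and the 3 ND values did not overlap, which was also true of 10.7% of all probes with HFD higher and of 12.2% with HFD lower. Taking the brightest probe of each of 19038 genes and no threshold on the fold, 852 genes rose (4.48%) and 543 fell (2.85%), and with the 2-fold threshold 119 rose (0.625%) and 29 fell (0.152%). The median difference over all 19038 was -0.0048. For the gene groups described below, a gene is said to have risen or fallen when its adjusted p was under 0.05 in that gene-wise reading, whatever its fold. Some genes belong to more than 1 of the groups. The groups and their members were chosen with earlier results of these data known, so that a count describes a group and is no independent test. In the whole tissue, more cells of a type and more RNA per cell cannot be told apart.

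The largest rise among probes with a gene name belonged to Gpnmb, a lysosomal glycoprotein of lipid-loaded macrophages. It read 11.82, 11.77 and 12.20 in the HFD arrays, against 8.51, 7.13 and 7.18 in the ND arrays. The difference was 4.32 ± 0.36 on the log2 scale (SE), or 20.0-fold (adjusted p = 1.08e-11). A dimmer Gpnmb probe differed by 1.27, or 2.41-fold. At the brighter probe ND replicate 1 stood well above the other ND arrays. Without that array the difference was 4.77. Gsta1, an alpha-class glutathione S-transferase, showed the same ND array more strongly: it read 11.91, 11.89 and 11.87 in HFD and 10.45, 7.96 and 8.15 in ND. Its difference was 3.04 ± 0.35, or 8.23-fold (adjusted p = 3.85e-08), and 14.3-fold without ND replicate 1. Its close relative Gsta2 followed, with 10.30, 10.53 and 10.48 in HFD and 8.95, 7.77 and 7.93 in ND, a difference of 2.22 ± 0.20. The sequences of these 2 genes are nearly identical, so that their probes may share transcripts.

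Lcn2, the iron-siderophore-binding lipocalin of the acute phase, was high in every HFD array, at 12.49, 12.82 and 12.91, against 8.99, 11.54 and 8.76 in ND. Here ND replicate 2 was the high one. The difference of 2.98 ± 0.44 (7.87-fold, adjusted p = 6.03e-06) became 14.6-fold when that array was left out. Lpl, the lipoprotein lipase that frees fatty acids from circulating triglyceride, had tight replicates in both diets, with 12.13, 12.29 and 12.52 in HFD and 10.02, 9.40 and 9.75 in ND. It came to 2.59 ± 0.14, or 6.04-fold (adjusted p = 3.85e-17), while a dimmer probe of the same gene differed by 0.19 (adjusted p = 0.052). Lgals3, a galectin of activated macrophages, reached 11.86, 11.99 and 12.37 in HFD, against 9.75, 9.38 and 9.27 in ND, a 6.09-fold difference. Anxa2, an annexin that binds membranes in a calcium-dependent way, read 12.58, 12.72 and 12.71 in HFD and 10.76, 10.21 and 10.10 in ND, 4.98-fold apart, and its second probe differed by 0.65.

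**Figure D1:**
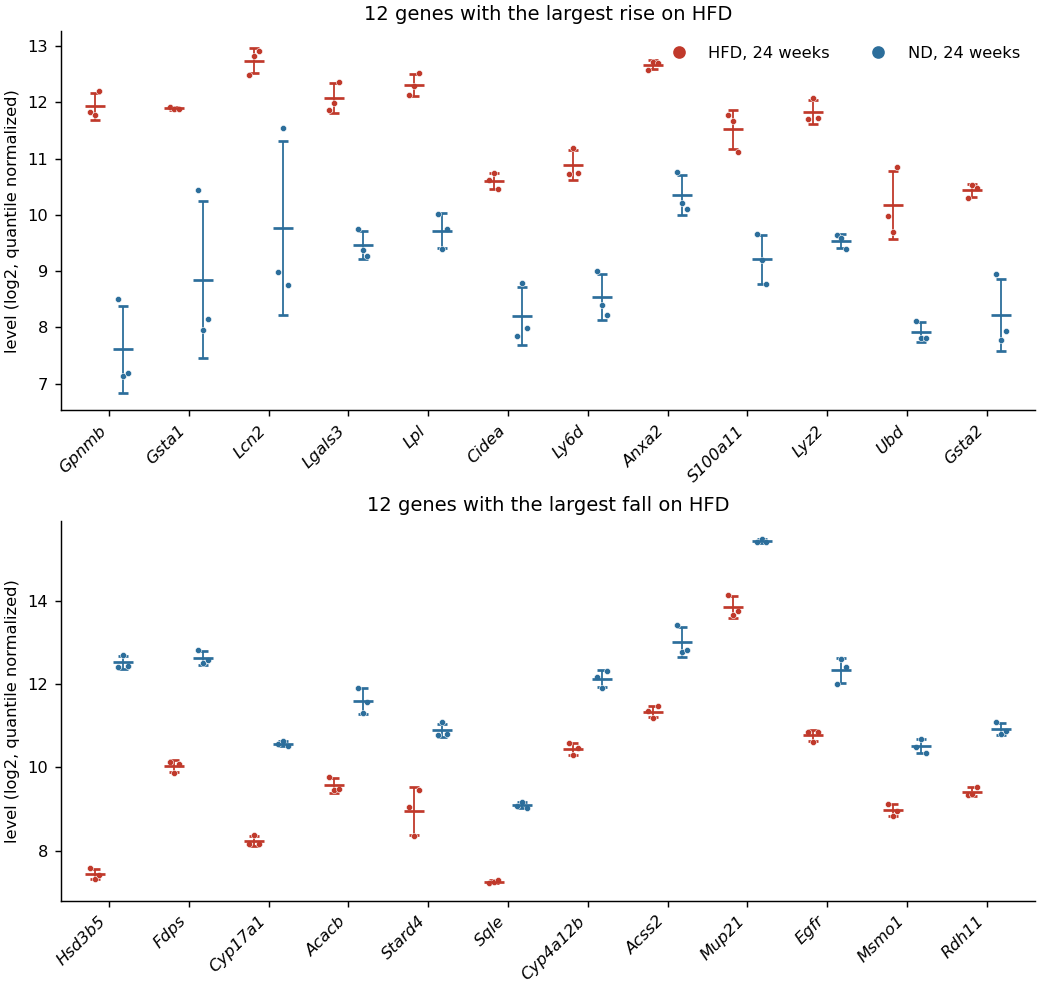
Level (log2, quantile normalized) on each of the 3 HFD arrays (red, left of each pair) and the 3 ND arrays (blue, right) at 24 weeks for the 12 genes with the largest rise (top) and the 12 with the largest fall (bottom) whose groups did not overlap; the horizontal bar is the mean and the whiskers 1 SD. Gpnmb lies 4.32 higher and Hsd3b5 5.08 lower in HFD, and 1 ND array stands near the HFD arrays for Gsta1 and 1 for Lcn2.

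The largest fall among probes with a gene name was in Hsd3b5, a male-predominant hepatic steroid reductase. It read 7.57, 7.33 and 7.42 in the HFD arrays, close to the median of all probes, against 12.42, 12.71 and 12.44 in ND. The difference was -5.08 ± 0.47, or 33.9-fold (adjusted p = 2.87e-10). Cyp17a1, which makes androgen precursors and is also expressed in mouse liver, read 8.15, 8.38 and 8.17 in HFD and 10.57, 10.63 and 10.51 in ND (-2.34 ± 0.25, 5.05-fold). The epidermal growth factor receptor, Egfr, had 10.84, 10.61 and 10.85 in HFD and 12.01, 12.60 and 12.41 in ND, a 2.97-fold difference (adjusted p = 0.000106). Rdh11, a retinol dehydrogenase, was tight within each diet, at 9.33, 9.37 and 9.53 in HFD and 11.09, 10.81 and 10.87 in ND (2.86-fold lower, adjusted p = 2.04e-13). Mup21, one of the major urinary proteins that liver secretes, read 14.15, 13.67 and 13.75 in HFD and 15.41, 15.49 and 15.42 in ND. Members of that family are nearly identical in sequence, so that its probe may read several of them.

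Sterol synthesis genes fell at nearly every step that was measured. Of 20 listed genes 15 had a probe with that symbol here, and 12 of them fell, 6 by more than 2-fold, while none rose. The median over the 15 was -0.82. By array, the median level of the list was between 7.86 and 7.96 in HFD and between 8.95 and 9.06 in ND. Fdps, which joins isoprenoid units into farnesyl diphosphate, led the group with 10.14, 9.86 and 10.07 in HFD and 12.83, 12.50 and 12.57 in ND (-2.61 ± 0.21, 6.1-fold, adjusted p = 1.08e-11). A dimmer Fdps probe differed by -0.55 (adjusted p = 0.059). Sqle, the squalene epoxidase at the entry to the sterol branch, read 7.22, 7.24 and 7.30 in HFD, near the median of all probes, and 9.06, 9.18 and 9.03 in ND (3.58-fold), and its second probe fell by 0.75.

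The enzymes that trim the sterol ring followed. Msmo1, which starts the removal of methyl groups at carbon 4, had 9.12, 8.84 and 8.96 in HFD and 10.48, 10.69 and 10.35 in ND (2.89-fold). Cyp51, the lanosterol demethylase, fell 2.67-fold. Nsdhl and Hsd17b7, which act at carbon 4 after Msmo1, fell 2.34-fold and 1.92-fold, and the sterol reductase Tm7sf2 fell 2.29-fold. Sc5d fell by 0.44 with an adjusted p of 0.019, and its call was lost in 4 of the 6 fits that left out 1 array. Ebp was lower by 0.41 with an adjusted p of 0.086. Mvk and Idi1 did not pass the test, and the Idi1 probe averaged 6.98 in HFD and 7.01 in ND.

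**Figure D2:**
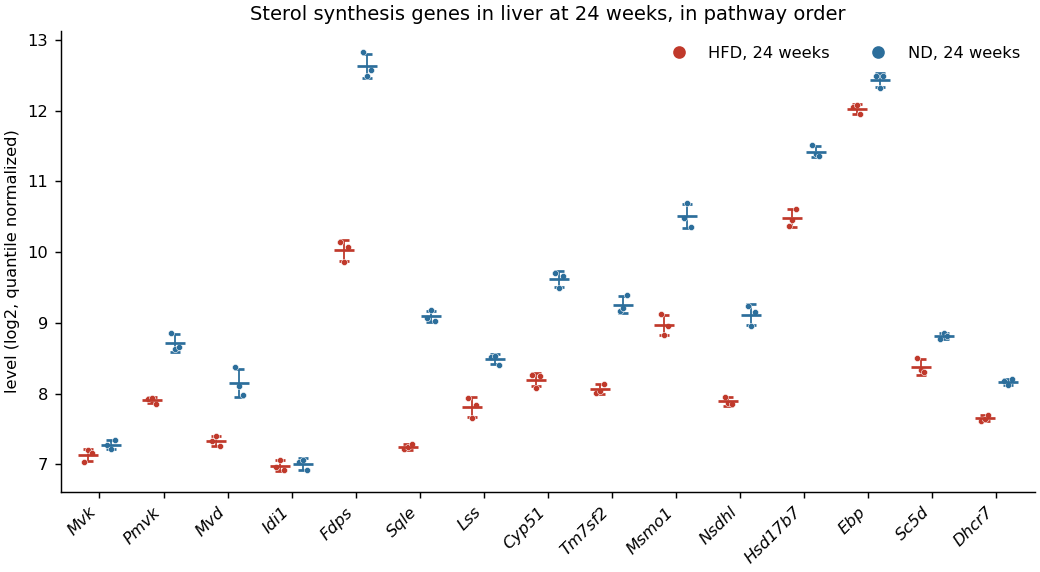
Level (log2) of the 15 measured sterol synthesis genes on the 3 HFD arrays (red, left of each pair) and the 3 ND arrays (blue, right) at 24 weeks, in pathway order from left to right, with mean and SD. All but Mvk, Idi1 and Ebp fell, and the median difference of the 15 was -0.82.

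Of 8 genes of sterol uptake and SREBP control 3 fell and 1 rose, and of 11 genes of sterol efflux and esterification 2 rose. Stard4, a sterol carrier between membranes, read 9.05, 8.34 and 9.47 in HFD and 10.78, 11.08 and 10.80 in ND (3.83-fold lower, adjusted p = 2.21e-09). Insig1, which holds SREBP in the endoplasmic reticulum, fell by 0.54 and Scap, its escort protein, by 0.66. Srebf1, the lipogenic SREBP gene, went the other way, at 9.75, 9.31 and 9.85 in HFD and 8.97, 8.95 and 8.84 in ND (0.72, adjusted p = 0.0067, and 0.056 without HFD replicate 6). Abcg5 and Abcg8, the half-transporters that secrete sterol into bile, rose 1.9-fold and 1.76-fold. Abcg5 read 13.88, 13.94 and 14.17 in HFD and 13.07, 13.15 and 12.99 in ND, while the Abcg8 call was lost without ND replicate 1 (adjusted p = 0.0503).

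Promoter sequences of the sterol genes are shown because these genes moved together and because the CCAAT box, bound by NF-Y, is a known partner of SREBP sites. RefSeq windows of 300 bases (GRCm38.p6, 250 before to 50 after the annotated start) were at hand in the table used here for 12 of the 15 sterol synthesis and sterol control genes that fell. The 5 letters CCAAT, searched on both strands (ATTGG on the printed one), were present in at least 1 window of 11 of these 12 genes, or 91.7%, against 41.1% of all 27025 genes in the table. They were also present in all 13 sterol synthesis genes with a window (100%), those that did not fall included. The letters thus do not set apart the genes that fell. The 3 windows with the most matches are printed 5′ to 3′ along the gene's own strand, with the matches in capitals.
Nsdhl, chrX:72918271-72918570, plus strand: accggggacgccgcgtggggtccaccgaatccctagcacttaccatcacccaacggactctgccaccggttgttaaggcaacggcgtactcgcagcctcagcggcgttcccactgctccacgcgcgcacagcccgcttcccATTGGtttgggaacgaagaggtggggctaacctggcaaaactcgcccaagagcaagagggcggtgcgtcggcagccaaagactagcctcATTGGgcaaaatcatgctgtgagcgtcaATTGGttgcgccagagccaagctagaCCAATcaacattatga
Msmo1, chr8:64733529-64733828, minus strand: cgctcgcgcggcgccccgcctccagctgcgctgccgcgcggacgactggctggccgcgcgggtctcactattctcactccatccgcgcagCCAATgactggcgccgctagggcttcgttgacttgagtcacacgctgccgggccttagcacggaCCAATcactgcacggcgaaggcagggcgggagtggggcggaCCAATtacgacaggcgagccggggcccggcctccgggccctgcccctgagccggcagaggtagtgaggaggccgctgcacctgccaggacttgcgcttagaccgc
Hsd17b7, chr1:169969156-169969455, minus strand: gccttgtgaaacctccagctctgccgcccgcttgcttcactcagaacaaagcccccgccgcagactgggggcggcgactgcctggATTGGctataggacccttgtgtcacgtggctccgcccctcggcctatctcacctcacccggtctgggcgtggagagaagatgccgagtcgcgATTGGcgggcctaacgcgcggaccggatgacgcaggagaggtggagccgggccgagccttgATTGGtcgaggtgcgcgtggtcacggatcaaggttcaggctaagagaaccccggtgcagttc
Nsdhl had 4 matches, and Msmo1 and Hsd17b7 had 3 each. A sterol element written as TCACNCCAC was found in none of the 12 genes' windows, against 1.44% of all genes. A match describes the letters in a window and is no measured binding.

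Lipogenic enzymes fell in part. Among 21 genes of fatty acid and triglyceride synthesis 8 fell, 1 rose (Agpat2), and the median was -0.32. Without HFD replicate 6 the count that fell was 5. Acacb, the acetyl-CoA carboxylase at the mitochondrial surface, read 9.78, 9.45 and 9.49 in HFD and 11.91, 11.30 and 11.57 in ND (4.07-fold lower, adjusted p = 7.44e-09), whereas its second probe did not differ (-0.03, adjusted p = 0.93). The acetate-activating enzyme Acss2 had 11.36, 11.20 and 11.47 in HFD and 13.42, 12.77 and 12.82 in ND (3.16-fold lower), and its second probe fell by 0.46. Acly, the citrate lyase, fell 1.77-fold, and the desaturases Fads1 and Fads2 fell 1.9-fold and 1.57-fold. The probe of Fasn averaged 7.24 in HFD and 7.16 in ND, near the median of all probes, and the Scd1 probe averaged 15.57 in HFD and 15.65 in ND, near the top of the scale, so that neither bears on its gene.

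Of 16 lipid droplet genes 4 rose and none fell, with a median of 0.02 that was -0.01 without HFD replicate 5. Cidea, a droplet-fusing protein typical of brown fat, read 10.62, 10.74 and 10.46 in HFD and 7.84, 8.80 and 7.98 in ND (5.27-fold, adjusted p = 6.29e-11). Cidec, its relative in white fat and fatty liver, had 10.13, 9.95 and 9.64 in HFD and 8.23, 7.84 and 7.74 in ND (3.92-fold). Plin4 read 10.92, 11.32 and 10.61 in HFD and 8.81, 9.23 and 9.30 in ND (3.58-fold), and Pparg, the adipogenic nuclear receptor, was 1.49-fold higher. Plin2, the common hepatic droplet coat, differed by 0.10 (adjusted p = 0.85).

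Among 22 targets of PPAR-alpha and enzymes of oxidation, 1 fell and none rose. Without HFD replicate 6 there were 3 that fell and 1 that rose, and with the 6 arrays fitted alone 4 fell. Cyp4a14, a fatty acid omega-hydroxylase, was the one, at 12.82, 13.53 and 12.51 in HFD and 14.20, 14.12 and 14.22 in ND (2.34-fold lower). None of 12 secreted hepatokines passed the test, Fgf21 and Igf1 included, at 0.04 and -0.15. Of 16 glucose and insulin genes, 3 fell by less than 2-fold: Pck1 (-0.62), Insr (-0.51) and Fbp1 (-0.30).

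Among 15 genes of bile acid synthesis 4 fell and none rose. Cyp8b1, the 12-alpha-hydroxylase that directs synthesis toward cholic acid, read 14.36, 14.51 and 14.51 in HFD and 15.57, 15.34 and 15.64 in ND (2.08-fold lower, adjusted p = 6.94e-10). Cyp7b1 of the alternative pathway had 11.65, 11.59 and 11.79 in HFD and 12.57, 12.64 and 12.65 in ND (1.92-fold lower). Cyp7a1, the rate-limiting enzyme, differed by 0.21 with an adjusted p of 0.86. Of 11 transport genes 2 rose and 1 fell. Abcc3 and Abcc4, which export bile acids back to blood, rose 2.0-fold and 1.49-fold, and Slc10a1, the uptake carrier, fell by 0.61.

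Of 16 male-biased hepatic genes 7 fell and none rose, with a median of -0.31. Besides Hsd3b5, the omega-hydroxylase Cyp4a12b read 10.58, 10.29 and 10.46 in HFD and 12.17, 11.91 and 12.31 in ND (3.22-fold lower), and Cyp4a12a fell 2.41-fold. C8b, a complement component, had 11.44, 11.17 and 11.45 in HFD and 12.32, 12.60 and 12.40 in ND (2.12-fold lower). Of 13 female-biased genes 3 fell, 2 of them by more than 2-fold, and 1 rose, with a median of 0.04. Cyp17a1 fell furthest among them (-2.34). The 1 that rose was Cyp2b13, a P450 expressed mainly in female liver, at 8.43, 9.38 and 9.36 in HFD and 7.02, 7.20 and 6.90 in ND (4.04-fold). Among 9 genes of growth hormone signalling none passed the test, with Socs2 at -0.58 (adjusted p = 0.49) and Cish at 0.58 (adjusted p = 0.69).

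Detoxification genes changed in part. Of 20 glutathione S-transferases 4 rose (Gsta1, Gsta2, Gsta4, Gstm1) and 1 fell (Gstt3). Among 22 cytochrome P450 genes and their receptors 5 rose and 1 fell, and 3 rose when HFD replicate 5 was left out. Cyp3a11, the main drug- and bile-acid-inducible form, read 15.06, 15.13 and 15.05 in HFD and 13.01, 13.84 and 13.70 in ND (2.96-fold, adjusted p = 6.59e-07). Of 13 genes of NRF2 and oxidative stress 3 rose, Srxn1 by 1.62-fold, Gpx4 by 1.56-fold and Nqo1 by 1.5-fold.

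Genes of macrophages and antigen presentation rose as groups. All 7 measured genes of MHC class II presentation rose, 6 of them by more than 2-fold, with a median of 1.55. H2-Ab1, a class II beta chain, read 12.45, 12.61 and 12.96 in HFD and 10.59, 10.57 and 10.30 in ND (4.55-fold, adjusted p = 2.89e-07). Cd74, the invariant chain, had 12.44, 12.50 and 12.90 in HFD and 10.72, 10.58 and 10.35 in ND (4.17-fold). HFD replicate 6 was the highest array for each of the 7, and without it the call of Ciita was lost (adjusted p = 0.18).

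Of 14 macrophage and monocyte markers 10 rose and none fell. The median was 1.04, and the median level by array was between 9.09 and 9.35 in HFD and between 8.03 and 8.23 in ND. Lyz2, the myeloid lysozyme, read 11.70, 12.08 and 11.73 in HFD and 9.64, 9.59 and 9.39 in ND (4.91-fold, and 0.85 on the log2 scale at its second probe). Laptm5, Fcer1g and Tyrobp, adaptors of immune receptors and lysosomes, rose 2.6-fold, 2.9-fold and 2.29-fold. The 4 that did not pass, Ctss, Itgam, Itgax and Ptprc, were read by probes near the median of all probes (Ctss averaged 7.22 in HFD and 7.04 in ND, and the others less). Of 11 Kupffer cell markers 7 rose. The complement subunit C1qb led with 11.80, 12.13 and 11.72 in HFD and 10.06, 10.07 and 9.92 in ND (3.64-fold). Clec4f, a lectin restricted to Kupffer cells in mouse liver, read 10.88, 10.93 and 10.96 in HFD and 10.23, 10.38 and 10.26 in ND (1.55-fold, adjusted p = 1.3e-05), and Vsig4 rose 1.88-fold. Timd4 and Marco differed by -0.13 and -0.14 and did not pass.

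The list of lipid-associated macrophage genes had 8 of 10 up, 6 by more than 2-fold, with a median of 1.57. Its median level by array was between 10.63 and 10.71 in HFD and between 8.14 and 8.94 in ND. Trem2, the lipid receptor that names these cells, read 9.01, 8.72 and 8.78 in HFD and 7.25, 7.12 and 7.12 in ND, where it was near the median of all probes (3.19-fold, adjusted p = 4.87e-13). Cd63, a lysosomal tetraspanin, had 11.16, 11.00 and 11.09 in HFD and 9.36, 8.92 and 8.87 in ND (4.09-fold). Cd9 rose by only 0.37 (adjusted p = 0.036), a call lost without HFD replicate 4, HFD replicate 5, ND replicate 2 or ND replicate 3. The lowest member of the list differed by -0.48 and did not pass. Other liver cells express several of these genes as well, and the part of each cell type was not tested. Of 10 T and NK cell markers 1 rose (Cd8b1, 1.39-fold), of 3 B cell markers none, and of 7 neutrophil markers 1 (S100a8, 1.81-fold). Neither call held in every fit that left out 1 array, and the median level by array of the T and NK cell list was between 7.17 and 7.35 in HFD and between 7.13 and 7.22 in ND. The B cell list (6.98 to 7.03 in HFD and 6.97 to 7.12 in ND) and the neutrophil list (6.99 to 7.07 in HFD and 6.93 to 7.03 in ND) lay near the median of all probes, 7.04.

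**Figure D3:**
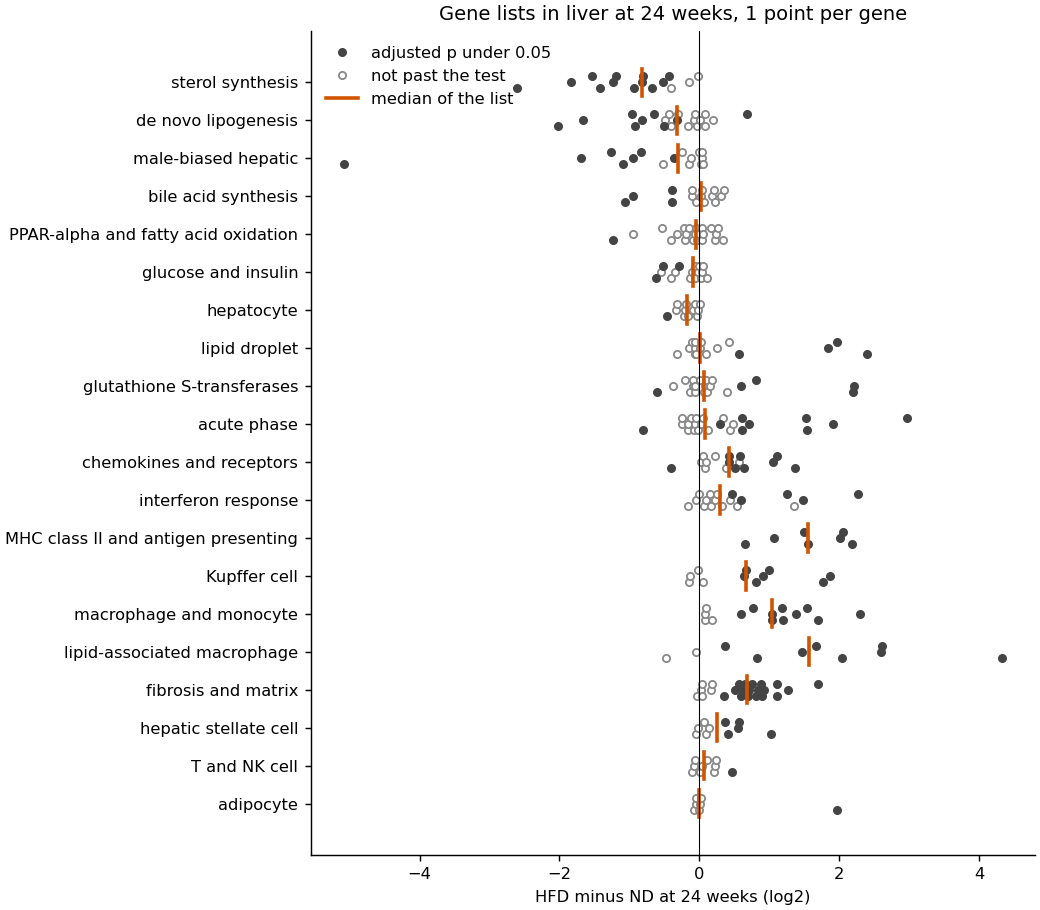
Difference between HFD and ND at 24 weeks (log2) for each measured gene of 20 gene lists, 1 point per gene by its brightest probe; filled points had an adjusted p under 0.05, open points did not, and the orange bar is the list's median. The medians run from -0.82 for sterol synthesis to 1.57 for lipid-associated macrophages, and the hepatocyte markers have a median of -0.17.

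Of 16 chemokines and receptors 8 rose and 1 fell, and 5 rose when either HFD replicate 6 or ND replicate 3 was left out. Ccl4, a macrophage chemokine, read 8.74, 8.87 and 9.26 in HFD and 7.95, 7.43 and 7.40 in ND (2.57-fold), and Ccl2, the monocyte attractant, rose 1.35-fold at 7.26, 7.26 and 7.34 in HFD and 6.97, 6.70 and 6.89 in ND, a call lost without ND replicate 2 (adjusted p = 0.0998). Of 18 interferon-responsive genes 5 rose, or 3 without HFD replicate 6. Ubd, a ubiquitin-like modifier, read 9.98, 9.70 and 10.86 in HFD and 8.11, 7.82 and 7.82 in ND (4.8-fold). Gbp2 and Cxcl10 rose 2.79-fold and 2.37-fold, and HFD replicate 6 was the highest array for all 3. The Cxcl10 call was lost without that array (adjusted p = 0.072).

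Among 24 acute phase genes 8 rose and 1 fell (Apcs), and 5 rose when ND replicate 1 was left out. Saa3, the serum amyloid of macrophages and hepatocytes, had 10.40, 10.32 and 10.95 in HFD and 8.77, 8.71 and 8.47 in ND (3.76-fold). Orm2 read 12.56, 12.81 and 12.83 in HFD and 10.93, 11.80 and 10.91 in ND (2.87-fold). Saa1 overlapped between the diets, with 14.51, 14.56 and 14.79 in HFD and 12.19, 15.08 and 11.99 in ND, the second ND array again being the high one. Its difference of 1.54 (adjusted p = 0.031) became 2.53 (adjusted p = 5.03e-06) without ND replicate 2 and was not past the test when any of the other 5 arrays was left out.

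Of 24 genes of fibrosis and matrix turnover, 18 rose, 4 by more than 2-fold, and none fell, with a median of 0.68. Mmp13, a collagenase, read 8.80, 8.69 and 9.17 in HFD and 7.57, 7.02 and 6.98 in ND (3.24-fold, adjusted p = 5.77e-09). Timp1, the inhibitor of such enzymes, had 8.34, 8.21 and 8.50 in HFD and 7.26, 7.06 and 6.93 in ND (2.4-fold). The intermediate filament gene Vim and the growth factor Ccn2 each rose 2.16-fold. Col1a1, the main fibrillar collagen, read 7.94, 7.92 and 7.94 in HFD and 7.14, 7.05 and 6.96 in ND (1.85-fold), while the probes of Col1a2 and Col3a1, near the median of all probes, differed by 0.02 and 0.17 and did not pass. Of 10 stellate cell markers 5 rose, and Acta2, the actin of activated stellate cells, had 9.45, 9.38 and 9.38 in HFD and 8.41, 8.42 and 8.32 in ND (2.03-fold).

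Of 14 fetal and injury-related hepatic genes 9 rose, 6 by more than 2-fold, and none fell. This list too was chosen with earlier results of these data known, and it holds Ly6d and S100a11, which were among the 12 largest rises. Ly6d, a small lipid-anchored surface protein, read 10.72, 11.20 and 10.74 in HFD and 9.00, 8.40 and 8.23 in ND (5.08-fold, adjusted p = 2.94e-09), and S100a11, a calcium-binding protein, 11.77, 11.67 and 11.13 in HFD and 9.65, 9.21 and 8.78 in ND (4.97-fold). Anxa5 rose 2.4-fold. Of 17 cell cycle genes 7 rose and none fell, led by the inhibitor Cdkn1a at 8.86, 9.57 and 8.91 in HFD and 7.93, 7.67 and 7.55 in ND (2.63-fold) and by Ccnd1 at 11.50, 11.54 and 11.74 in HFD and 10.95, 10.22 and 10.18 in ND (2.21-fold). ND replicate 1 was the highest ND array for Ccnd1 and Cdkn1a, as for Gpnmb, Gsta1, Ly6d and Anxa2.

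Part of these differences had passed the threshold in earlier weeks. Of the 154 probes that rose, 11 had passed the same threshold in all 7 earlier weeks, 37 had passed at 20 weeks, and 56 had passed in none. Of the 43 that fell, 4 had passed in all earlier weeks, 17 at 20 weeks and 9 in none. The threshold itself had been passed upward at 2 weeks by 0.183% of all probes, at 4 weeks by 0.219%, at 6 weeks by 0.223%, at 8 weeks by 0.371%, at 12 weeks by 0.135%, at 16 weeks by 0.163% and at 20 weeks by 0.135%. Downward the same shares were 0.0398%, 0.0839%, 0.053%, 0.0552%, 0.0574%, 0.139% and 0.0817%. The diet effect at 24 weeks was set against the mean of the 7 earlier effects, which share no arrays with it. By a difference of more than 1 on the log2 scale and an adjusted p under 0.05, it lay above that mean at 28 probes (0.0618%) and below it at 7 (0.0155%). Against the 20-week effect alone it lay above at 10 probes (0.0221%) and below at 2 (0.00442%). Single arrays moved these counts: without ND replicate 3 they were 5 above and 0 below the 20-week effect, without HFD replicate 6 there were 6 below it and 16 below the earlier mean, and without ND replicate 2 there were 4 below the earlier mean.

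Gpnmb averaged 7.86, 8.40, 8.02, 7.90, 9.23, 9.53, 10.13 and 11.93 in HFD from 2 to 24 weeks, against ND means between 6.91 and 7.24 before 24 weeks and 7.61 at 24 weeks. Its 24-week effect exceeded the earlier mean by 2.67 ± 0.38 (SE, adjusted p = 3.17e-05), and by 1.08 at the dimmer Gpnmb probe (adjusted p = 5.5e-09). Trem2 stayed between 7.07 and 7.81 in HFD before 24 weeks and then averaged 8.84, with ND between 6.87 and 7.27 throughout the earlier weeks. Its effect exceeded the earlier mean by 1.41 ± 0.13 (adjusted p = 5.5e-09) and the 20-week effect by 1.13 (adjusted p = 0.0017). Cd63 and Ly6d also passed both comparisons, whereas Cd207, langerin, with HFD means of 9.35 at 20 weeks and 9.68 at 24 weeks, passed only the comparison with the earlier mean.

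Hsd3b5 went furthest in the other direction. Its HFD means were 12.61, 13.33, 12.82, 12.97, 11.80, 10.39, 9.98 and 7.44 from 2 to 24 weeks, against ND means between 12.34 and 13.56 before 24 weeks and 12.52 at 24 weeks. The 24-week effect differed from the earlier mean by -4.14 ± 0.50 (adjusted p = 1.87e-06) and from the 20-week effect by -2.72, where the adjusted p was 0.10. For Cyp4a12b the difference from the earlier mean was -1.19, but here the ND arrays were low as well at 24 weeks, at 12.13 on average against 13.18 to 13.63 in the earlier weeks.

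For some of the genes whose effect was larger at 24 weeks, it was the ND mean that lay outside its earlier range. Cidec averaged 9.91 in HFD at 24 weeks, within its HFD range of 8.11 to 10.19 in the earlier weeks, but 7.93 in ND, below the ND range of 8.59 to 10.35. The effect of Lyz2 exceeded the earlier mean by 1.05 (adjusted p = 0.040). Its HFD mean was 11.84, within 11.16 to 12.12 before, but its ND mean was 9.54, below the 9.99 to 10.82 before. Csad, which makes the taurine precursor hypotaurine, averaged 10.96 in HFD at 24 weeks, against HFD means of 10.75 to 12.14 before, and 9.72 in ND, against ND means of 10.78 to 11.64 before. Its difference at 24 weeks was 1.23 (2.35-fold, adjusted p = 2.33e-07), and it exceeded the 20-week effect by 1.29 (adjusted p = 0.0059).

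**Figure D4:**
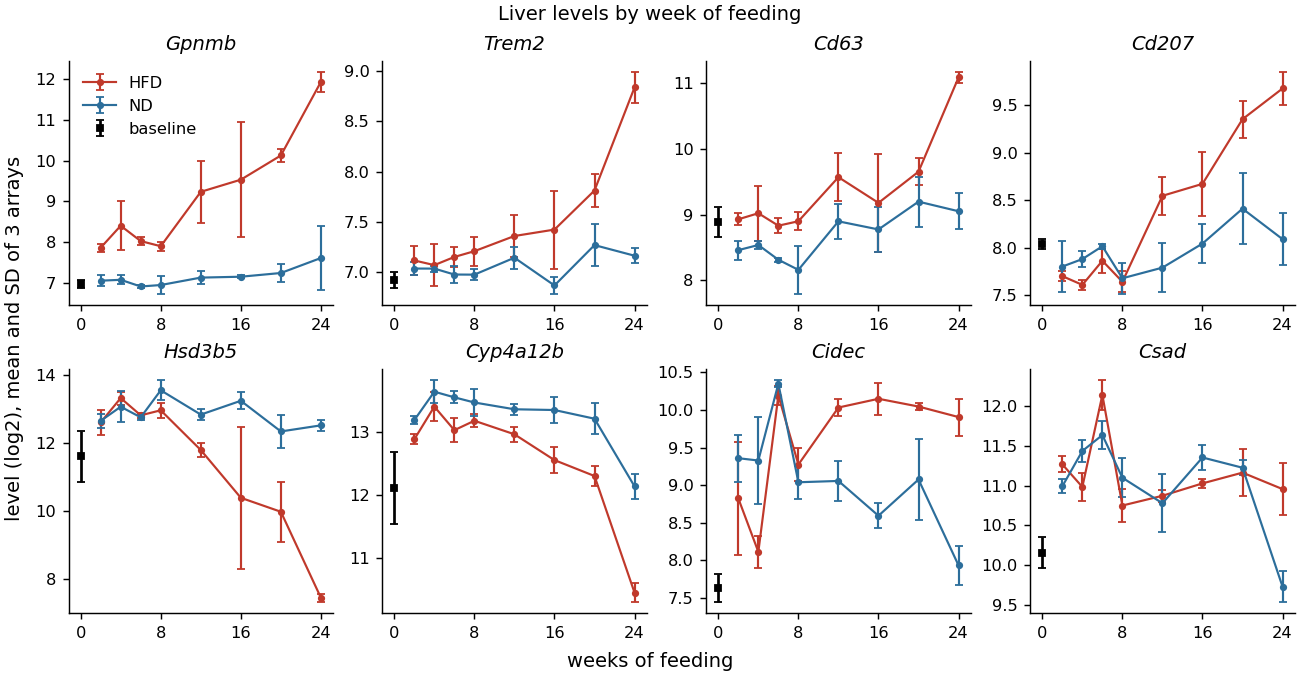
Level (log2, mean and SD of 3 arrays) in HFD (red) and ND (blue) by weeks of feeding, with the baseline arrays at week 0 (black), for 8 genes whose diet effect at 24 weeks differed from the earlier weeks; each panel has its own vertical range. Gpnmb, Trem2 and Cd63 are higher in HFD at 24 weeks than at any earlier week, Hsd3b5 in HFD is at its lowest, and for Cidec and Csad the ND mean is at its lowest of the 8 diet weeks.

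For some other genes the difference from the earlier mean did not pass the test. Lcn2 rose by 2.98 at 24 weeks and by 2.78 over the earlier weeks on average, with single weeks between 1.98 and 3.70, and the difference of the 2 effects had an adjusted p of 0.96. Cyp17a1 was lower by 2.34 at 24 weeks and by 2.71 on average before (adjusted p of the difference 0.73). The median of the sterol synthesis list lay between -0.78 and -0.34 in the earlier weeks and was -0.82 at 24 weeks. Of its 15 genes, 3 had a 24-week effect below the earlier mean with an adjusted p under 0.05. This was true of 192 of all 45281 probes, a count by probe and not by gene. Fdps was among the 3 (-0.89, adjusted p = 0.040). Both of its means lay above their earlier ranges at 24 weeks: 12.63 in ND (10.67 to 12.26 before) and 10.02 in HFD (9.47 to 9.93 before). The median of the MHC class II list was between 0.56 and 2.24 in the earlier weeks, on both sides of its 24-week value of 1.55. That of lipid-associated macrophages was between 0.38 and 0.61, below its 24-week value of 1.57, and that of fibrosis and matrix between 0.05 and 0.42, below 0.68. Of the members, 6 of 10 lipid-associated macrophage genes and 6 of 24 matrix genes had a 24-week effect above the earlier mean with an adjusted p under 0.05, which was true of 1% of all genes, while the arrays of both diets stood apart at this week. Both lists were chosen with earlier results of these data known, so that these counts are no independent support.

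**Figure D5:**
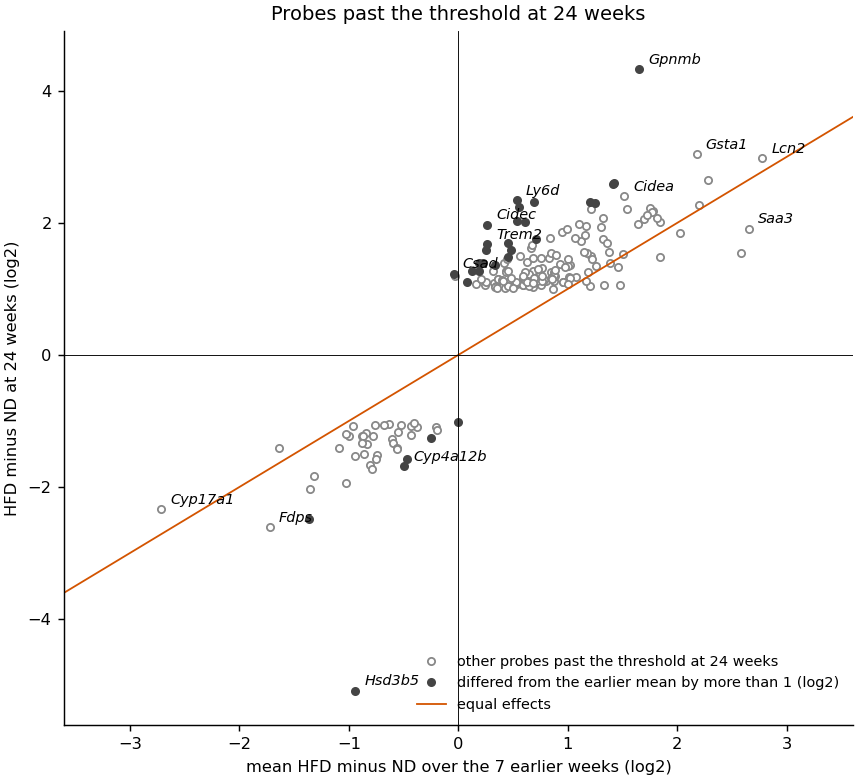
Difference between HFD and ND at 24 weeks (log2, vertical) against the mean of the same difference over the 7 earlier weeks (log2, horizontal) for the 197 probes past the threshold at 24 weeks, with the line of equal effects; filled probes differed from the earlier mean by more than 1 with an adjusted p under 0.05. The probes were chosen on the vertical axis; Hsd3b5 and Gpnmb lie far from the line, while Lcn2 and Cyp17a1 lie near it.

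Epididymal fat of the same diets and week, measured from pooled RNA on separate arrays that were normalized apart from the liver, gave a side-by-side view. There 442 probes rose (0.976%) and 130 fell (0.287%) under the same threshold. Of the 154 probes that rose in liver, 51 also rose in fat, which was 33.1% of the liver's rises and 11.5% of the fat's. Of the 43 that fell in liver, 2 also fell in fat (4.65% of the liver's falls and 1.54% of the fat's), in Acss2 and Acacb, and no probe passed the threshold in opposite directions. Gpnmb differed by 4.32 in liver and 3.04 in fat, Trem2 by 1.67 in liver and 3.58 in fat, and Lgals3 by 2.61 in liver and 1.89 in fat. A second Gpnmb probe had the reverse order, at 1.27 in liver and 4.59 in fat. Acss2 differed by -1.66 in liver and -1.75 in fat. Fdps, at -2.61 in liver, differed by -0.27 in fat (adjusted p = 0.60), and Hsd3b5, at -5.08 in liver, by -0.05 in fat. No test of the difference between the tissues was made, since their values were not normalized together.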

How the data were processed

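The authors deposited log2 values of 45281 probes (Illumina mouse whole-genome arrays). The study's methods, written for the fat depots, describe quantile normalization and a log transformation, and the submitters' processing notes list R 2.4.1. The liver values shared 1 distribution over the 51 liver arrays, as quantile normalization gives. No detection p-value of the liver arrays was used, and their number limits the precision. Gene symbols came from the platform annotation: 34885 probes had 1 symbol, 18 had several and 10378 had none. 0 value columns remained unmapped.

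A model with 1 mean per group over the 17 liver groups was fitted with limma 3.58.1 in R 4.3.3 (lmFit, eBayes), and p-values were adjusted by Benjamini-Hochberg over all probes of a contrast. The contrasts were HFD minus ND at 24 weeks, and that effect minus the 20-week effect or minus the mean of the 7 earlier effects. A probe was said to rise or fall when its adjusted p was under 0.05 and it differed by more than 1 on the log2 scale. Gene lists took each gene's brightest probe by its mean over the 51 arrays. The genes named were the 12 with the largest rise and the 12 with the largest fall past the threshold without overlap between the diets, the 8 in each direction with the largest difference from the earlier weeks, and list members as examples. The members and lists were chosen with earlier results of these data known. With 3 arrays against 3, a two-sided exact permutation test cannot go below 0.1, so none was used for single genes. The fit was tested on simulated data. Alternatives covered normalization, thresholds, dim probes, array weights, a t-test, a replicate block and leaving out arrays. The replicate numbers in the short sample names did not pair the arrays.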

Additional observations from a re-analysis of the deposited data

Results flagged for a closer look

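The results below were picked out because the diet effect at 24 weeks differed from that of other weeks by a test of the difference itself, with an adjusted p under 0.05 and a difference over 1 on the log2 scale (limma). No explanation was tested, and the 24-week arrays of both diets stood apart from the other weeks.

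Relative to the mean of the 7 earlier weeks, the effect was higher by 2.67 for Gpnmb, 1.81 for Ly6d, 1.71 for Cidec, 1.62 for S100a11, 1.5 for Cd63, 1.41 for Trem2, 1.41 for Cyp2b13 and 1.34 for Cd207. It was lower in the signed sense by -4.14 for Hsd3b5, -1.19 for Cyp4a12b, -1.1 for Egfr, -1.02 for Mup2, -1.02 for Sult2a8 and -1.01 for Obp2a. Mup2, a major urinary protein, read 12.38, 12.77 and 12.02 in HFD and 13.22, 13.53 and 13.49 in ND at 24 weeks, while its HFD and ND means had been 14.11 or higher in every earlier week. A second Mup2 probe near the top of the scale differed by 0.02 between the diets at 24 weeks, and by -0.01 from the earlier mean. Sult2a8, a hepatic sulfotransferase, averaged 10.16 in HFD and 11.43 in ND at 24 weeks, against 11.96 or higher in both diets before. Obp2a, an odorant-binding protein, did not pass at 24 weeks, where HFD averaged 7.54 and ND 7.33 at 24 weeks (0.21, adjusted p = 0.76), against HFD means between 8.05 and 8.96 and ND means between 7.29 and 7.50 before. Cyp2b13 averaged 6.85, 7.01, 6.83, 6.79, 7.20, 8.43, 8.77 and 9.06 in HFD from 2 to 24 weeks.

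Relative to the 20-week effect alone, it was higher in the signed sense by 1.67 and 1.62 for the 2 probes of Ly6d, by 1.58 and 1.13 for 2 of the probes of Cd63, and by 1.58 for Hspb1, 1.29 for Csad, 1.18 for Rsad2, 1.13 for Trem2 and 1.02 for Usp18. The probe ILMN_2433990, which has no gene name here, differed by 1.18. A further probe of Cd63 differed from the mean of the earlier weeks by 0.93, under the threshold of 1. Hspb1, a small heat shock protein, read 10.71, 10.84 and 10.66 in HFD and 9.34, 9.21 and 9.22 in ND at 24 weeks (2.79-fold). Rsad2 and Usp18 are interferon-responsive: at 24 weeks Rsad2 differed by 0.55, and at 20 weeks by -0.63, while Usp18 differed by 0.34 at 24 weeks (adjusted p = 0.24) and by -0.68 at 20 weeks. Both diets lay below their earlier ranges at 24 weeks: Rsad2 averaged 10.02 in HFD (10.18 to 10.90 before) and 9.47 in ND (10.53 to 11.36 before), and Usp18 averaged 8.49 in HFD (8.53 to 9.49 before) and 8.15 in ND (9.21 to 10.61 before). The effect was lower by -1.13 for Acss2 and by -1.19 for the unnamed probe ILMN_2540103, which read 8.61, 8.36 and 8.49 in HFD and 11.10, 10.84 and 10.99 in ND. The Acss2 mean in ND was 13.00 at 24 weeks, above the 11.63 to 12.83 of the earlier weeks.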

How the results depend on the processing

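At 24 weeks 154 probes rose and 43 fell. With no threshold on the fold the counts were 1353 and 947, with 30 above and 24 below the 20-week effect and 329 above and 192 below the earlier mean. A t-test, which the study's methods name for comparing group values, gave 153 and 42 unadjusted, and 27 and 10 after Benjamini-Hochberg. For differential expression on arrays those methods name limma, at the adjusted p and fold thresholds used here. Array weights gave 18 above and 8 below the 20-week effect and 14 below the earlier mean. With the replicate block, in which the numbers did not pair the arrays (correlations of deviations of -0.03, 0.02 and 0.07), 152 rose and 43 fell, with 5 above and 1 below the 20-week effect. Leaving out each array in turn gave 143 to 166 that rose, 42 to 51 that fell, 5 to 14 above and 0 to 6 below the 20-week effect, and 21 to 40 above and 4 to 16 below the earlier mean. Without replicate 1 of HFD at 16 weeks, which correlated least with its group (chosen after seeing the data), 5 lay below the 20-week effect. The cause of these changes was not tested. Cyclic loess gave 158 and 43.

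None of the named genes and counts changed direction under the alternatives run, but some list medians near 0 did, among them these: without HFD replicate 5 lipid droplet was -0.01 and complement 0.01, without ND replicate 2 bile acid synthesis was -0.05, and without ND replicate 3 acute phase was -0.006. Of 186 list genes past the test, 135 stayed past it in every fit that left out 1 array. Sterol synthesis then had 11 to 12 genes that fell, and matrix 17 to 18 and lipid-associated macrophages 7 to 8 that rose. The difference of Egfr from the earlier weeks was lost without any of 5 arrays, and that of Cyp2b13 without HFD replicate 5 (adjusted p = 0.063). Other probes of Lpl, Fdps, Acacb and Mup2 did not pass. Nor did another probe of Egfr for the difference from the earlier weeks (-0.85, adjusted p = 0.056). A probe near the median level leaves little room for a fall, and without a detection limit no level was called absent.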

Other observations

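Several further groups are given beside the shares of all genes, 4.48% that rose and 2.85% that fell. Among 14 apolipoprotein genes 2 rose and 2 fell. Apom, carried on high-density lipoprotein, read 13.51, 13.40 and 13.89 in HFD and 14.59, 14.64 and 14.50 in ND (1.96-fold lower, adjusted p = 3.98e-05), and Apoe was 1.2-fold higher, a call lost without HFD replicate 5 or ND replicate 1. Of 12 genes of one-carbon and sulfur amino acid metabolism 3 fell, Shmt1 by 1.44-fold, and Csad alone rose. The count that fell was 1 to 2 when any 1 array was left out, and was 1 without HFD replicate 4, HFD replicate 5 or ND replicate 3. Of 13 genes of the urea cycle and amino acid breakdown 1 fell, Hpd, by 1.25-fold, and none without HFD replicate 4, HFD replicate 5, ND replicate 1 or ND replicate 3. The median over 16 clock genes was -0.28, and of the 16 only Tef passed the test (-0.65, adjusted p = 0.035). The Tef call was lost without HFD replicate 5 (-0.38, adjusted p = 0.47) and without any 1 ND array, and with the 6 arrays fitted alone 6 clock genes fell. Of 14 genes of endoplasmic reticulum stress 3 rose and 1 fell, and Hspa5, the chaperone that marks this response, differed by -0.05. The rises were 1 when HFD replicate 5, ND replicate 1 or ND replicate 3 was left out. Of 18 lysosomal genes 5 rose, led by Psap (1.68-fold) and Hexa (1.6-fold), and the count was 3 without HFD replicate 5, HFD replicate 6 or ND replicate 2. Of 11 endothelial markers 3 rose, Eng by 1.46-fold, and 1 without HFD replicate 5. Of 6 cholangiocyte markers Sox9 alone rose, by 1.36-fold, and its call held only without HFD replicate 4 among the 6 fits that left out 1 array. None of 2 erythroid markers passed, and of 7 intestinal markers Lgals4 fell 1.64-fold.

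A number of probes outside every list moved as far as those described. These were picked after their values were seen. Ear3, an eosinophil-associated ribonuclease, read 10.09, 10.16 and 10.33 in HFD and 8.32, 8.23 and 8.16 in ND (3.88-fold). Members of that family share sequence, and a second Ear3 probe differed by 0.22. Ntrk2, a neurotrophin receptor, had 9.33, 9.35 and 9.46 in HFD and 7.84, 7.62 and 7.69 in ND (3.17-fold, adjusted p = 7.1e-12). Tmem45b read 9.11, 9.04 and 9.18 in HFD and 7.53, 7.26 and 7.27 in ND (3.36-fold). Avpr1a, the vasopressin receptor of hepatocytes, had 8.52, 8.98 and 8.76 in HFD and 10.33, 10.15 and 10.28 in ND (2.83-fold lower). Susd4 was 2.53-fold lower, and both probes of Dct fell, by 1.22 and 1.33.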
